A study of Mus musculus with 5 samples.

Results

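A set of 6 genes that keep lymphocytes alive or draw them into tissue was followed through the cell types of the mouse colon mesenchyme. They were chosen by name, among 20355 genes listed for the retained cells, and all 6 were found. Il7 encodes interleukin 7, Tnfsf13b encodes BAFF, Tnfsf11 encodes RANK ligand, and Cxcl13, Ccl19 and Ccl21a encode chemokines. The material was untreated colon mesenchyme of 10-week-old C57/BL6 mice, freshly isolated after the epithelium had been stripped with EDTA and DTT and the rest digested with collagenase and dispase. Single cells were profiled by Drop-seq, which counts polyadenylated transcripts per cell by unique molecular identifiers (UMIs). The 5 collections come from 2 biological replicates, collections 1A and 1B from the first and 2A, 2B and 2C from the second, and there is 1 condition only. How many animals made up a replicate is not given in the sources used here.

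Interleukin 7 is a stromal survival factor for T cells and innate lymphoid cells and signals through Il7r and the common chain Il2rg. BAFF keeps mature B cells alive through Tnfrsf13c and also binds Tnfrsf13b and Tnfrsf17. RANK ligand acts on Tnfrsf11a, and the decoy receptor Tnfrsf11b binds and neutralises it. In the gut, RANK ligand on stromal and innate lymphoid cells drives the formation of lymphoid follicles and of the M cells above them. Cxcl13 attracts Cxcr5+ B cells into follicles, while Ccl19 and Ccl21 attract Ccr7+ T cells and dendritic cells towards lymph vessels and lymph nodes. In lymphoid organs, lymphotoxin on lymphocytes acts on its receptor Ltbr on stroma and raises several of these factors through the alternative NF-κB pathway of Map3k14, Nfkb2 and Relb.

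Of 7935 barcodes, 5985 were retained, and the collections kept between 860 and 1727 cells each, with a median of 1226.5 to 1456 UMIs per cell. The cells were grouped by all variable genes other than the 6 factors and 41 receptor and partner genes, and clusters were named from marker genes. The 10 classes that were large enough to test held 3132 fibroblast-like, 577 blood endothelial, 478 macrophage, 390 T, NK or innate lymphoid, 298 enteric glia, 239 pericyte, 237 smooth muscle, 232 B, 165 lymphatic endothelial and 120 dendritic cells. Levels are given as CPM, the UMIs of a gene per 1000000 UMIs of all genes, summed over the cells of a class in each biological replicate, with the SD over the 2 replicates. Levels were compared between cells for 1 gene at a time and not between genes. Nothing says that the collections of 1 replicate are separate preparations, so they are shown as repeat runs. The p-values rest on the spread between the 2 replicate sums that is left after the difference common to all classes is removed. That spread is estimated over all classes together. Fewer cells with a transcript and less transcript per cell cannot be told apart in these sums. In all, 10 barcode sequences occurred in more than 1 collection, 6 of them among the retained cells. The doublet caller marked 20 cells, 0.333% of those passing the filters, which is too few for it to have worked, so doublets remain among the cells.

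The 6 factors were found in different cell classes. Lymphatic endothelial cells held Ccl21a and most of Il7, fibroblast-like cells held Tnfsf13b, Cxcl13 and the few UMIs of Ccl19, and the lymphoid class held Tnfsf11. Across classes 4 factors passed the filter on low counts, and Tnfsf13b and Ccl19 did not. A gene can pass this filter through its highest class alone, so a higher call there is partly set in advance. The 4 factors gave 40 pairs of a factor and a class. By edgeR's quasi-likelihood test with Benjamini-Hochberg adjustment, each class against the mean of the other 9, 7 of the 40 were called higher, beside 22.8% of all such pairs over the 6999 genes tested. None was called lower by edgeR, beside 13.1% of all pairs, with 1 at an unadjusted p under 0.05 and 3 called lower by DESeq2. Lymphatic endothelial cells were higher for 2 of the 4 (19.2% of all genes were called higher there), fibroblast-like cells for 2 of 4 (30.9%), the T, NK or innate lymphoid class for 1 of 4 (23.6%), dendritic cells for 1 of 4 (19.6%) and enteric glia for 1 of 4 (23.7%).

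**Figure D1:**
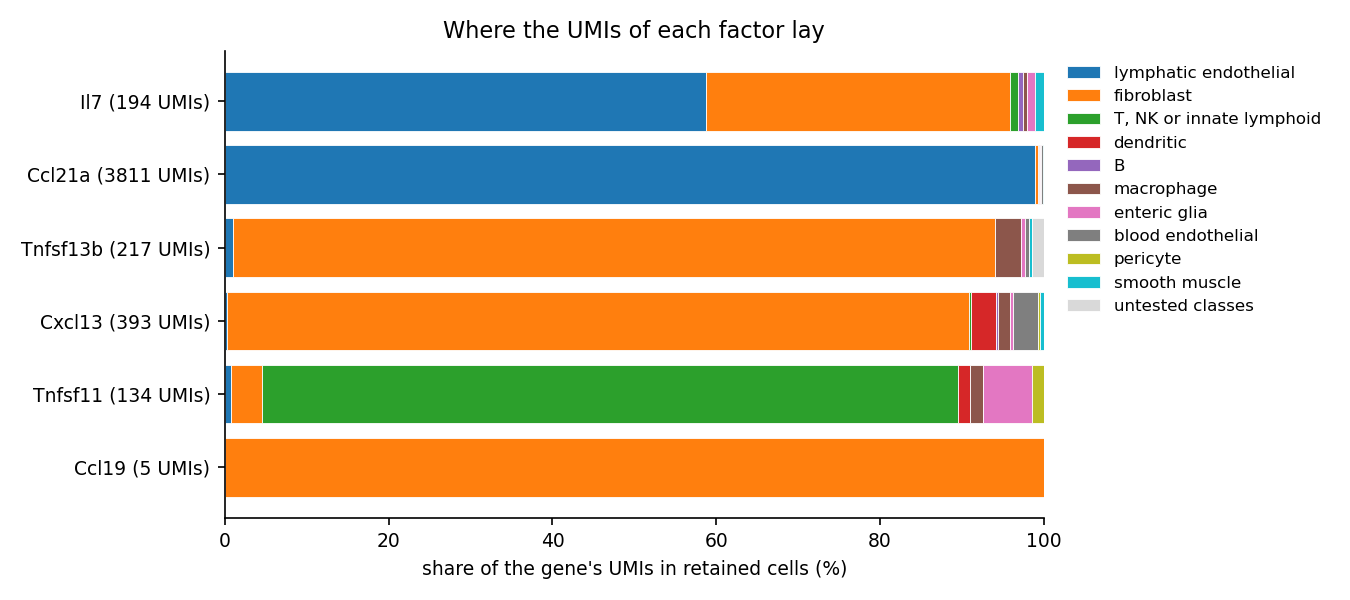
Share of each factor's UMIs (percent, horizontal axis) that lay in each cell class, over all 5985 retained cells, with the number of UMIs beside the gene name. Lymphatic endothelial cells held 99.0% of the Ccl21a UMIs and 58.8% of the Il7 UMIs, fibroblast-like cells 93.1% of Tnfsf13b and 90.6% of Cxcl13, and the lymphoid class 85.1% of Tnfsf11.

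Il7 was highest in lymphatic endothelial cells. It stood at 260 CPM in collection 1A, 322 in 1B, 358 in 2A, 311 in 2B and 232 in 2C, against 14.7, 14.4, 23.0, 16.3 and 10.4 CPM in fibroblast-like cells of the same collections. Every collection was higher in lymphatic endothelial cells, and the ranges of the 2 classes did not overlap. The means were 293 ± 11 CPM in lymphatic endothelial cells and 15.7 ± 1.6 CPM in fibroblast-like cells (SD, n = 2 biological replicates), a log2 fold change of 3.93 (SE 0.34, adjusted p = 2.5e-27, edgeR, adjusted over all genes and all 45 pairs of classes). The lymphatic endothelial class itself was defined by Lyve1, Prox1, Mmrn1, Flt4 and Reln, each higher in both replicates than in any other class. Of all tests of a gene between 2 classes, 38.4% were called in either direction.

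Fibroblast-like cells came next for Il7, and their level was above the mean of the other classes (adjusted p = 7.1e-07, edgeR), although the step from fibroblast-like to smooth muscle cells, which had 2 UMIs, was not called (adjusted p = 0.24, edgeR). Barcodes with under 300 genes, which were not used as cells, had 0 and 12.05 CPM of Il7 in the 2 replicates, from 3 UMIs, against 14.6 and 16.9 CPM in fibroblast-like cells. Because fibroblast-like cells were so many more, they still held 72 of the 194 Il7 UMIs, beside 114 in the lymphatic endothelial cells. Blood endothelial cells, dendritic cells and pericytes had 0 Il7 UMIs. A count of 0 in 577 blood endothelial cells allows up to 0.520% of cells with a UMI, and the lymphatic endothelial level was at least 152-fold higher than the 3 counts that this depth could have missed. A UMI of Il7 was seen in 67 of 165 lymphatic endothelial cells and in 63 of 3132 fibroblast-like cells, 40.6% and 2.01%. After each cell was thinned to 500 UMIs, which kept 158 lymphatic endothelial and 3020 fibroblast-like cells, the shares were 12.7% and 0.728%.

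Il7 was spread over the whole lymphatic endothelial class. Its 3 sub-clusters, of 30, 61 and 74 cells, had 263 and 248, 334 and 373, and 291 and 313 CPM in the 2 replicates, so all 3 carried the gene at levels within 248 to 373 CPM. Il7 lies on chromosome 3 (chr3:7569994-7613760, GRCm38, minus strand, 5 exons in its principal transcript, GENCODE annotation). The antisense gene Gm16685 overlaps it and had 22 UMIs in the retained cells. The sources used here do not say whether the counting used strand, so reads of the pair may not be separable.

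Within the fibroblast-like cells, 4 clusters were compared. Cluster 1 (1533 cells) was led by Edil3, Stmn2, Tnfsf13b and Serpina3n and carried the Cd248, Osr1, Stmn2 and Edil3 markers. It also carried 2 of 6 adventitial or submucosal markers and 2 of 6 lamina propria markers. Cluster 2 (675 cells) was led by Plau, Saa3 and Nrg1 and carried 4 of 7 subepithelial and all 3 inflammatory-type markers, cluster 3 (585 cells) was led by Pi16, Has1 and Pcolce2 and carried 5 of 6 adventitial or submucosal markers, and cluster 4 (339 cells) was led by Bmp3, Palmd, Wif1 and Sox6. In this fit 3 factors could be tested, and here too a factor can pass the filter through its highest cluster alone. All 3 were called higher in cluster 1 (10.0% of the 7566 genes were). Of the 3, 1 was called higher in cluster 2 (16.4%), and 2 were called lower in cluster 3 (13.5%).

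Il7 was called higher in cluster 1 than in the mean of the others (log2 fold change 2.41, SE 0.51, adjusted p = 3.7e-05, edgeR). Cluster 1 had 29.9 and 25.2 CPM in the 2 replicates, cluster 2 6.13 and 18.0, cluster 3 3.70 and 2.19, and cluster 4 0 and 4.01. Cluster 1 did not pass the test against cluster 2 (log2 fold change 0.96, SE 0.48, adjusted p = 0.14, edgeR), and passed it against cluster 3 (2.91, SE 0.70, adjusted p = 3.0e-04) and cluster 4 (3.34, SE 1.02, adjusted p = 0.0065). Between 2 clusters, 24.2% of all such tests were called. Without collection 1A or 2A, Il7 did not pass the filter on low counts in this fit. At a finer clustering, 268 cells were led by Stmn2, Hapln1, Il7, Clu, S100a4 and the haemoglobin gene Hba-a1. They had 79.0 and 64.8 CPM of Il7 and held 35 of the 72 fibroblast UMIs. The other 7 fine clusters had at most 27.1 CPM in either replicate. Most of the Clu UMIs of these 268 cells were in 1 barcode, which had 67 of them and also 53 of Cxcl13. These fine clusters were described and not tested.

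**Figure D2:**
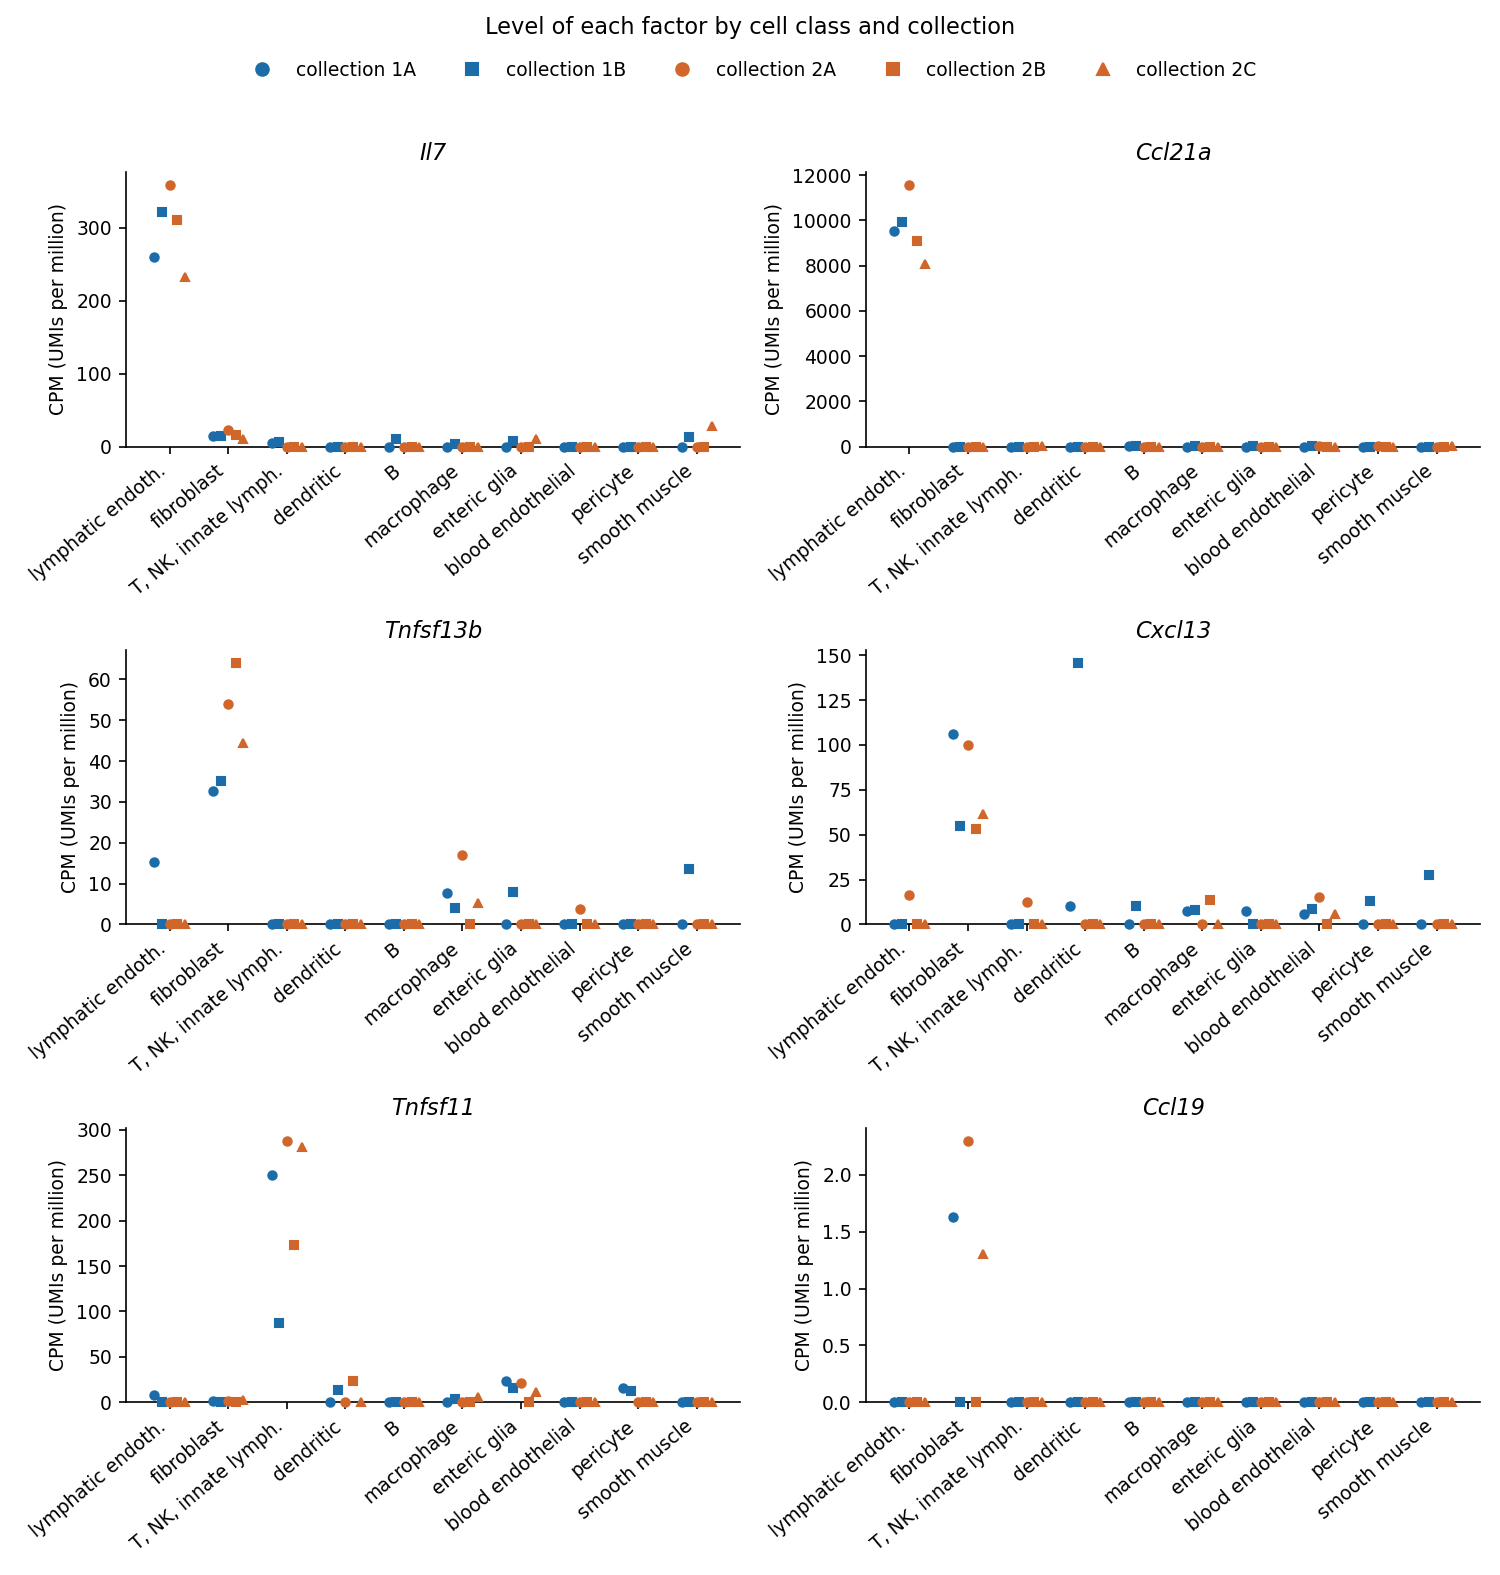
Level of each of the 6 factors (CPM, linear vertical axis, own scale for each gene) in the 10 tested cell classes. Each point is 1 collection, blue for biological replicate 1 and orange for biological replicate 2. Il7 and Ccl21a were highest in the lymphatic endothelial class in all 5 collections, and the 1 high dendritic point of Cxcl13 is collection 1B at 146 CPM.

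Tnfsf13b, the BAFF gene, was found mainly in fibroblast-like cells. They held 202 of its 217 UMIs, spread over 185 cells with at most 3 UMIs in a cell. The level was 32.7 CPM in collection 1A, 35.1 in 1B, 54.1 in 2A, 64.0 in 2B and 44.4 in 2C, so the 3 collections of replicate 2 were all above the 2 of replicate 1. By replicate it was 33.7 and 54.0 CPM in fibroblast-like cells, against 5.86 and 7.84 CPM, from 7 UMIs, in macrophages, which are known to make BAFF and came next. B cells, the lymphoid class, dendritic cells and pericytes had 0 UMIs. Tnfsf13b did not pass the filter on low counts in the class fit and so has no test there. Without that filter it was called higher in fibroblast-like cells (adjusted p = 9.1e-32, edgeR) and in macrophages (adjusted p = 0.022). Barcodes with under 300 genes had 20.3 CPM of Tnfsf13b from 8 UMIs, more than macrophages. The part that free RNA plays in the macrophage UMIs was not tested.

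Among the fibroblast-like cells Tnfsf13b lay in cluster 1. That cluster had 71.6 CPM in collection 1A, 73.4 in 1B, 95.2 in 2A, 124 in 2B and 90.6 in 2C, against 11.2, 20.3, 24.5, 12.6 and 5.22 CPM in cluster 2. The lowest collection of cluster 1 was above the highest of any other cluster, which was 32.1 CPM in cluster 4. The means were 87.6 ± 21.5 CPM in cluster 1 and 14.9 ± 0.6 CPM in cluster 2 (SD, n = 2), a log2 fold change of 2.26 (SE 0.33, adjusted p = 3.1e-10, edgeR, all pairs of clusters). Against all other clusters together the adjusted p was 7.3e-25. Cluster 1 held 177 of the 217 UMIs, and a UMI was seen in 163 of its 1533 cells. Tnfsf13b was kept out of the clustering, yet it was among the leading genes of cluster 1.

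In the adventitial-type cluster 3, Tnfsf13b was called lower than in the other clusters (log2 fold change -2.76, SE 0.71, adjusted p = 5.5e-04, edgeR) from 3 UMIs. Without collection 2A that call was lost (-1.94, adjusted p = 0.12). At the finer clustering Tnfsf13b was spread over 3 clusters led by Lepr (61.1 and 85.0 CPM), by 2610203C20Rik and Tnfsf13b itself (107 and 133 CPM) and by Stmn2 (55.8 and 108 CPM). The cluster led by 2610203C20Rik carried 2 of the 4 Cd248, Osr1, Stmn2 and Edil3 markers and 2 of 6 lamina propria markers. Il7 and Tnfsf13b were seen together in 11 fibroblast-like cells, all in cluster 1. Of the 1533 cells of that cluster, 48 had Il7 and 163 had Tnfsf13b, and the overlap was not tested. Tnfsf13b lies on chromosome 8 (chr8:10006467-10039072, GRCm38, plus strand, 7 exons in its principal transcript).

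**Figure D3:**
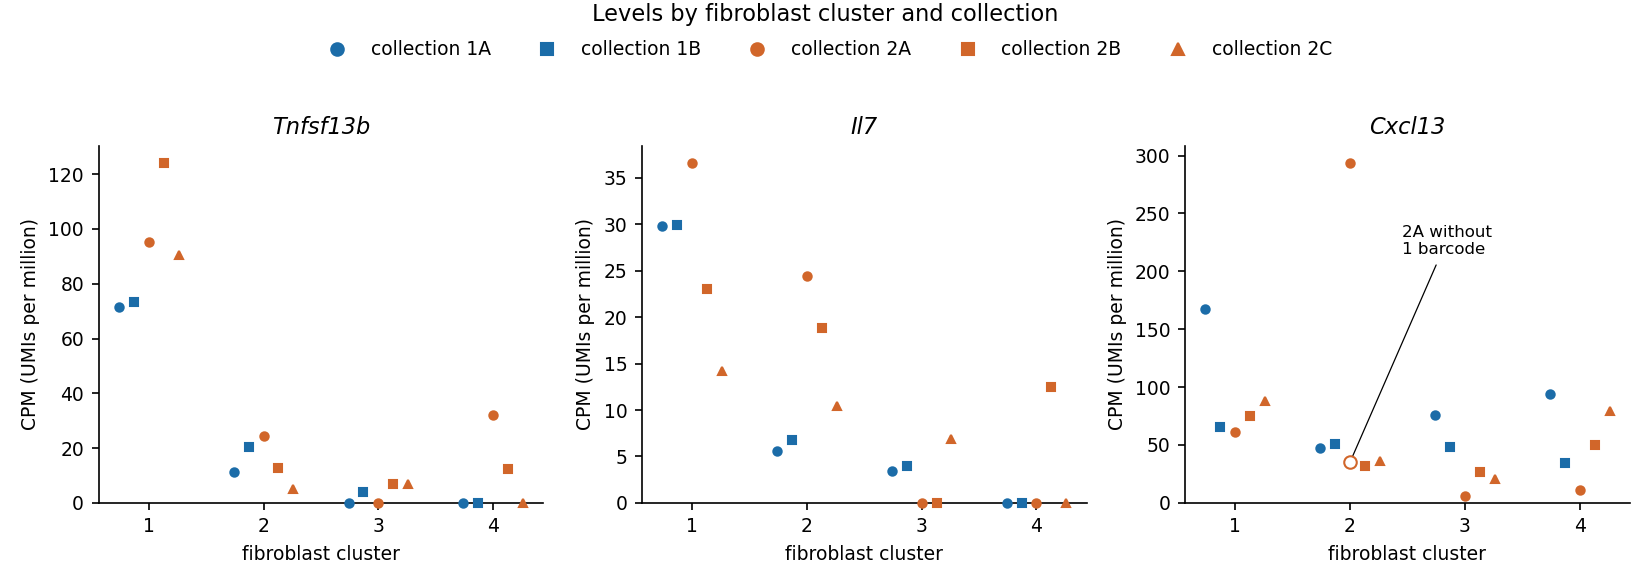
Levels (CPM, linear axis) of Tnfsf13b, Il7 and Cxcl13 in the 4 fibroblast clusters. Each filled point is 1 collection, and the open circle is cluster 2 of collection 2A without 1 barcode. Tnfsf13b in cluster 1 ran from 71.6 to 124 CPM, above every other cluster, while Cxcl13 in cluster 2 of collection 2A was 294 CPM with that barcode and 35.2 CPM without it.

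Tnfsf11, the RANK ligand gene, was carried mainly by lymphoid cells. The T, NK or innate lymphoid class had 250 CPM in collection 1A, 87.5 in 1B, 288 in 2A, 174 in 2B and 281 in 2C, against 0 to 23.1 CPM in enteric glia. All 5 lymphoid values were above all glial ones. The means were 217 ± 52 CPM in the lymphoid class and 15.6 ± 5.4 CPM in enteric glia (SD, n = 2), a log2 fold change of 3.61 (SE 0.52, adjusted p = 1.0e-10, edgeR). The class held 114 of the 134 UMIs, in 59 of its 390 cells. In the 3132 fibroblast-like cells 5 UMIs were counted, 0.911 and 1.27 CPM, and in blood endothelial cells 0, so that the lymphoid level was at least 108-fold higher than the floor of 3 counts in blood endothelial cells.

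Enteric glia were called higher for Tnfsf11 than the mean of the other classes (adjusted p = 0.0040, edgeR) from 8 UMIs in 8 cells. Barcodes with under 300 genes had 12.7 CPM of Tnfsf11, close to the glial level, and glia did not pass the test against pericytes, the next class (adjusted p = 0.48). With the UMIs split between clustering and testing, the glial call was lost (adjusted p = 0.062). The part that free RNA plays in the glial UMIs was not tested.

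Within the lymphoid class Tnfsf11 was concentrated in a small group of cells. Sub-cluster 5, of 26 cells led by Il22, had 1063 and 1219 CPM in the 2 replicates, and 18 of the 26 cells had a UMI. Its marker levels were 6886 CPM for Il22 and 167 for Il23r, genes of group 3 innate lymphoid cells, while Cd3e, Cd3d and Cd3g were at 0. Sub-cluster 2 (80 cells, led by Cd163l1 and Il10, with Cd3g at 113 CPM) had 397 and 306 CPM. Sub-cluster 3 (80 cells, led by Il5, with all 6 markers of group 2 innate lymphoid cells raised, Gata3 and Il1rl1 among them) had 150 and 121 CPM, and sub-cluster 4 (59 cells, led by Klra8) had 124 and 279 CPM. The largest, sub-cluster 1 (145 cells), had the highest Cd3d, Cd3g and Trbc2 and the lowest Tnfsf11, 15.6 and 35.0 CPM. Sub-cluster 5 held 40 of the 134 Tnfsf11 UMIs in 26 of the 390 cells. Sub-clusters were described and not tested. Tnfsf11 lies on chromosome 14 (chr14:78277445-78308043, GRCm38, minus strand, 5 exons).

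**Figure D4:**
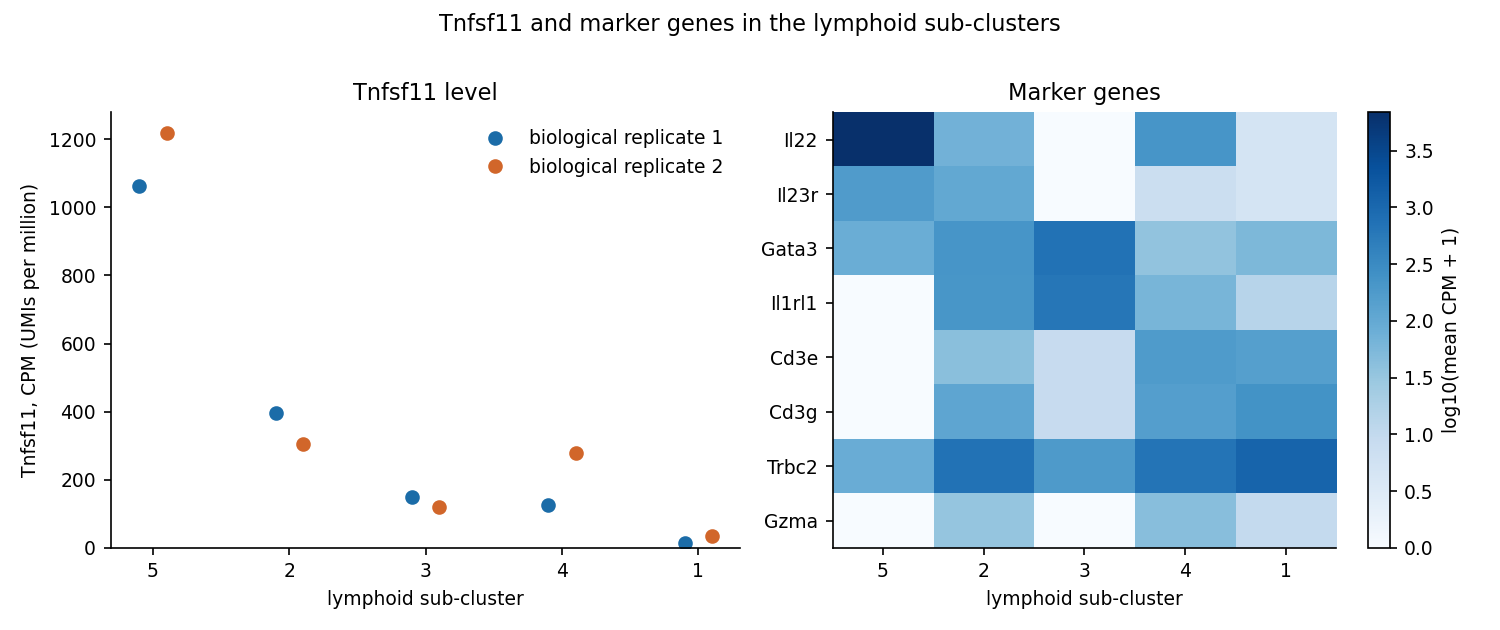
Left panel, Tnfsf11 level (CPM, linear axis) in the 5 sub-clusters of the T, NK or innate lymphoid class, 1 point per biological replicate. Right, mean level of marker genes in the same sub-clusters as log10(mean CPM + 1). The Il22-led sub-cluster 5 had 1063 and 1219 CPM of Tnfsf11 and no Cd3e or Cd3g, and sub-cluster 1 had 15.6 and 35.0 CPM.

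Cxcl13, the B cell attractant, was again a fibroblast gene. The fibroblast-like class held 356 of its 393 UMIs and had 106 CPM in collection 1A, 54.6 in 1B, 100.1 in 2A, 53.1 in 2B and 61.3 in 2C. Blood endothelial cells, from 12 UMIs in 12 cells, had 7.24 and 8.31 CPM in the 2 replicates. The fibroblast level was above the blood endothelial one in every collection, with means of 78.2 ± 7.3 and 7.77 ± 0.75 CPM (SD, n = 2) and a log2 fold change of 3.44 (SE 0.40, adjusted p = 5.4e-16, edgeR). Of the fibroblast UMIs, 53 were in 1 barcode of collection 2A. Without it the fibroblast level of collection 2A was 39.3 CPM. Replicate 2 then stood at 50.7 CPM, against 73.0 CPM with it and 83.4 CPM in replicate 1. Cxcl13 lies on chromosome 5 (chr5:95956951-95961068, GRCm38, plus strand, 4 exons).

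Among the 4 fibroblast clusters the order of Cxcl13 differed between the replicates. Cluster 1 had 124 and 73.9 CPM in the 2 replicates, cluster 2 49.1 and 130 CPM, cluster 3 63.0 and 17.5 CPM, and cluster 4 68.1 and 44.1 CPM. Clusters 1 and 2 were both called higher than the mean of the others (log2 fold changes 0.61, SE 0.19, adjusted p = 0.010, and 0.74, SE 0.22, adjusted p = 0.0040, edgeR), and cluster 3 was called lower (-0.77, SE 0.26, adjusted p = 0.014).

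A single barcode changed the order of clusters 1 and 2. This cell of collection 2A held 53 Cxcl13 UMIs, 13.5% of all UMIs of the gene, while no other fibroblast-like cell had more than 8. With it, cluster 2 of collection 2A stood at 294 CPM, and without it at 35.2 CPM, beside 31.5 to 50.8 CPM in the other 4 collections. Barcodes with under 300 genes had 55.0 and 24.1 CPM of Cxcl13 in the 2 replicates, from 14 UMIs, against 49.1 and 34.6 CPM in cluster 2 without the barcode. In a fit without that barcode, added after the data were seen, cluster 2 was no longer higher (log2 fold change -0.36, adjusted p = 0.36, edgeR), cluster 3 was no longer lower (-0.48, adjusted p = 0.18) and cluster 1 was higher (0.98, adjusted p = 1.5e-05). Cluster 1 was then the highest of the 4 clusters in all 5 collections, which with the barcode held in every collection but 2A. It was also above cluster 2 (log2 fold change 1.00, adjusted p = 4.7e-04), against -0.10 (SE 0.21, adjusted p = 0.80) with the barcode.

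Single collections moved these calls as well. Without collection 2A the value of cluster 2 was -0.53 (adjusted p = 0.18, edgeR) and that of cluster 3 was -0.41 (adjusted p = 0.29). The call of cluster 1 was lost without collection 1A (0.41, adjusted p = 0.30) and without 2C (0.60, adjusted p = 0.12), in fits that kept the barcode, and that of cluster 3 without 2C (-0.65, adjusted p = 0.18). The DESeq2 fit called none of the 3. At the finer clustering the highest mean level lay in 670 cells led by Lepr, Slco2b1, Igfbp3 and Rgs5, the last also a pericyte marker. They had 180.5 and 145 CPM, with 128 UMIs in 58 cells. The 268 cells led by Stmn2 had 18.6 and 198 CPM, and 53 of their 59 UMIs were those of the single barcode.

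The cell with 53 Cxcl13 UMIs carried other genes of lymphoid stroma. Its 5215 UMIs included 67 of Clu, 11 of Enpp2, 10 of Vcam1, 3 of Il7, 2 of Ccl19 and 1 each of Relb and Ltbr, and it had 13 UMIs of Col1a2 and 10 of Dcn. Clu is a gene of follicular dendritic cells, and Enpp2 makes lysophosphatidic acid at sites where lymphocytes leave the blood. Cr2, Bst1, Fcer2a, Coch and Madcam1, which mark follicular dendritic and marginal stroma, were at 0 in it. In the fibroblast-like class as a whole, this cell and its 67 Clu UMIs included, Clu stood at 39.4 CPM. Of these 5 genes Madcam1 was highest there, at 2.00 CPM. What part cells of lymphoid stroma play in the Cxcl13 level was not tested.

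A second barcode bears on the dendritic class, which was called higher for Cxcl13 than the mean of the others (log2 fold change 2.94, SE 0.67, adjusted p = 9.3e-05, edgeR). Its 12 UMIs lay in 3 of 120 cells, all of replicate 1, at 70.1 and 0 CPM in the 2 replicates. Of the 12, 9 were in 1 cell of collection 1B, which had 893 UMIs in all, 39 of them Clu, with 1 UMI each of Cr2, Bst1 and Madcam1 and 2 of Enpp2. The dendritic cell markers Flt3, Itgax, Zbtb46, Cd209a, Xcr1 and Fscn1 were at 0 in that cell. Of the fibroblast markers it had 3 UMIs of Dcn, 2 of Col1a2 and 1 of Col3a1, with Col1a1, Pdgfra, Lum, Dpt and Pdpn at 0. The dendritic call was lost without both barcodes (adjusted p = 0.52) and without collection 1B (log2 fold change 0.79, adjusted p = 0.68). Fibroblast-like over dendritic was 2.80 without both barcodes (adjusted p = 2.9e-04), against 1.07 (SE 0.46, adjusted p = 0.054) with them.

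Ccl19 was barely detected. In all, 5 UMIs were counted in 4 fibroblast-like cells, 2 of them in the cell with 53 Cxcl13 UMIs and 1 in each of 3 cells of cluster 1. No other class had a UMI. The fibroblast level of 0.911 and 1.27 CPM did not pass the filter on low counts, and without that filter it was not called higher (adjusted p = 0.30, edgeR). In the barcodes with under 300 genes Ccl19 stood at 5.07 CPM from 2 UMIs. The 165 lymphatic endothelial cells, with 0 UMIs, could have held up to 7.67 CPM unseen, and the 120 dendritic cells, among which mature migratory cells are known to make Ccl19, up to 10.2 CPM. The 4 pseudogenes or copies Ccl19-ps1, Ccl19-ps3, Gm12407 and Gm2564 match Ccl19 transcripts at 98.9% to 100% over 324 to 707 bases, so reads may have been lost or shared. Ccl19 lies on chromosome 4 (chr4:42754525-42756577, minus strand, 4 exons), and 16282 bases separate it from Ccl21a.

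Ccl21a was the most sharply placed of the 6. Lymphatic endothelial cells had 9517 CPM in collection 1A, 9914 in 1B, 11545 in 2A, 9090 in 2B and 8061 in 2C, and 161 of 165 cells had at least 1 UMI, with up to 102 in a cell. B cells, the class with the next mean level, had 4 UMIs, 19.1 CPM in replicate 1 and 0 in replicate 2. The log2 fold change of lymphatic endothelial over blood endothelial cells was 10.07 (SE 0.21, adjusted p = 4.4e-236, edgeR), with means of 9646 ± 47 and 7.77 ± 0.75 CPM (SD, n = 2). Dendritic cells had 0 UMIs, and the lymphatic endothelial level was at least 947-fold higher than the floor of 3 counts there.

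The Ccl21a UMIs outside the lymphatic endothelial class were few. The class itself held 3772 of 3811, the other tested classes stood at 0 to 9.53 CPM, and no step between neighbouring classes below the lymphatic endothelial class was called (adjusted p from 0.39 to 1, edgeR). Barcodes with under 300 genes had 165 CPM of Ccl21a, more than any class other than the lymphatic endothelial one. After thinning to 500 UMIs, 95.6% of lymphatic endothelial cells and 0.716% of blood endothelial cells had a UMI. The 3 sub-clusters had 8395 and 7934, 12159 and 12291, and 10457 and 9837 CPM, so all 3 carried the gene. All 67 lymphatic endothelial cells with an Il7 UMI also had Ccl21a. Since 161 of the 165 cells of the class had it, nearly any 67 of them would.

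Ccl21a belongs to a set of near-identical copies on chromosome 4, and its promoter is shown beside that of the copy Ccl21d to make the likeness visible. Both windows are 299 bases, 5' to 3', from RefSeq (GRCm38.p6), for Ccl21a at chr4:42773942-42774240 on the minus strand and for Ccl21d at chr4:41903363-41903661 on the plus strand. Capitals mark the 2 bases that differ.
Ccl21a: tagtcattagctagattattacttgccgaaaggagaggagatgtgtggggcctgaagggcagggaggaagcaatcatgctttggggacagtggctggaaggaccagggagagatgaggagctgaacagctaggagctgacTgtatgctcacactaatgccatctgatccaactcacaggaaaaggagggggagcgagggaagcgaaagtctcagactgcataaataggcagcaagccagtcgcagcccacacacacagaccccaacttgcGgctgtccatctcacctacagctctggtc
Ccl21d: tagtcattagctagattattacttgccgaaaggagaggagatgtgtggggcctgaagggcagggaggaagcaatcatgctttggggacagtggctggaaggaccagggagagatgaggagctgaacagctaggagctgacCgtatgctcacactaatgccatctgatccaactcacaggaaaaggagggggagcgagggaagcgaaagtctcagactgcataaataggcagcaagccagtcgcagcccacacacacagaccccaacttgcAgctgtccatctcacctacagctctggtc
Among annotated transcripts, Gm21541 matches the 870-base Ccl21a transcript over its whole length with 6 mismatches, Gm13304 over 837 bases with 5, and Ccl21b and Gm10591 over 402 bases with 2 each. Gm10591 had 1 UMI in the retained cells, and the other 3 are not among the genes listed for them. Reads of the copies cannot be told from those of Ccl21a with certainty, so reads may have been lost or shared. The value may be a sum over Ccl21 genes with this sequence or an undercount, and which of these holds was not tested. The Ccl21a gene spans chr4:42772860-42773993 (4 exons), inside the wider span of 4930578G10Rik on the opposite strand.

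The genes most like each factor over the 20 sums of class and replicate were sought by Pearson correlation of log2(CPM + 10), as a description. For Il7 they were Pard6g (r = 0.97), Gpm6a (0.96) and Tbx1 (0.96), and for Ccl21a they were Comp, Htr2b and Tbx1 (0.99 each). For Tnfsf11 they were Klra7, Nkg7 and Txk (0.95 each), for Cxcl13 Wnt4 (0.85), Has1 (0.77) and Cilp (0.76), and for Tnfsf13b Clec3b (0.90), Pdgfra (0.89) and Htra3 (0.86). The Il7 and Ccl21a levels themselves correlated at r = 0.95, and those of Tnfsf13b and Cxcl13 at 0.68. The sums of 1 replicate come from the same collections, and a high value in 1 class sets most of these numbers.

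The receptors lay mainly on immune cells. Il7r stood at 806 and 917 CPM in the lymphoid class, 662 and 553 in macrophages and 759 and 438 in dendritic cells, and at no more than 17.2 CPM on average in any other class, the 3 higher than the rest (highest adjusted p = 4.1e-72, edgeR). Ccr7, the receptor of Ccl19 and Ccl21, stood at 1489 and 1672 CPM in dendritic cells, 1276 and 887 in B cells and 194 and 185 in the lymphoid class. B cells carried Cxcr5 (157 and 87.7 CPM, adjusted p = 1.0e-24) and the BAFF receptor Tnfrsf13c (210 and 136 CPM, adjusted p = 6.0e-35). Their Tnfrsf13b was at 38.1 and 58.5 CPM, from 14 UMIs, and was not tested.

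The RANK ligand receptor Tnfrsf11a was low, 36.2 and 41.2 CPM in lymphatic endothelial cells and 29.3 and 31.4 in macrophages, and did not pass the filter on low counts. The decoy receptor Tnfrsf11b was a fibroblast gene, with 99 of its fibroblast UMIs in the adventitial-type cluster 3 at 107 and 89.9 CPM, against 28.7 and 28.8 in cluster 1 (cluster 3 against the others, log2 fold change 3.25, SE 0.33, adjusted p = 7.3e-21, edgeR). The scavenger Ackr4, which removes Ccl19 and Ccl21, lay in the same cluster, at 90.8 and 76.7 CPM from 84 UMIs, against 1.15 and 3.60 CPM in cluster 1 (adjusted p = 7.8e-37).

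**Figure D5:**
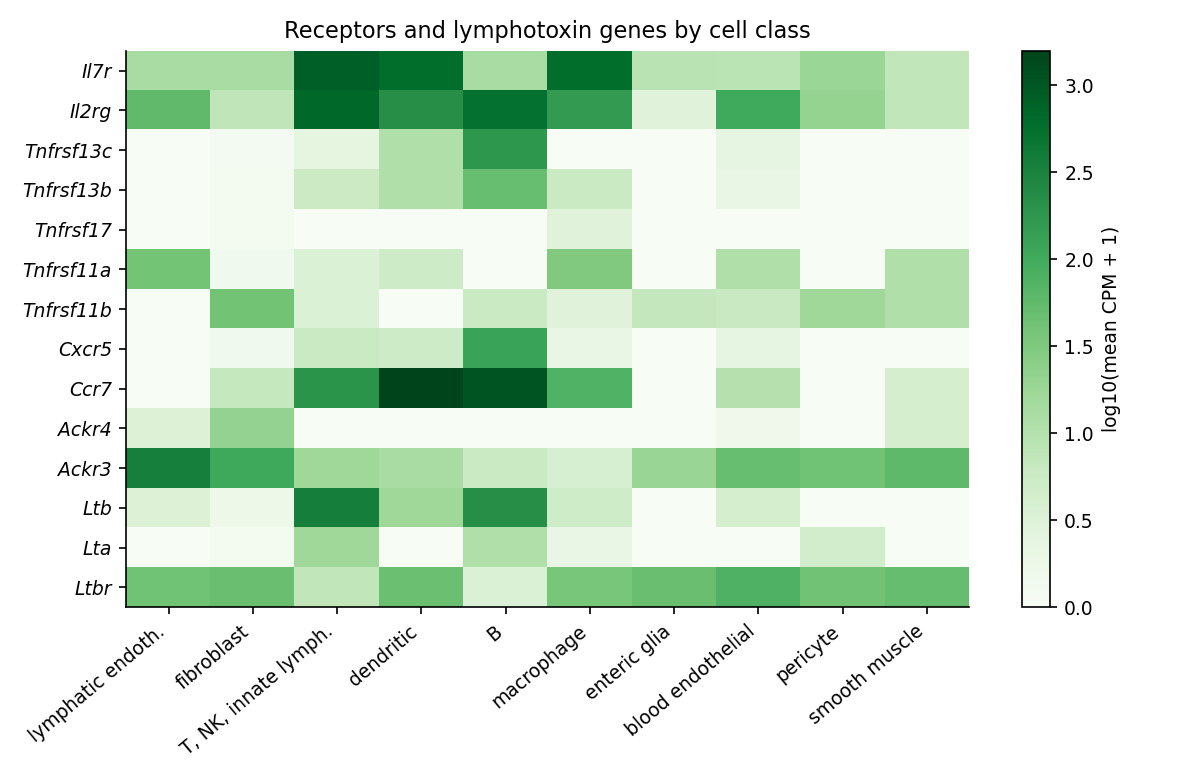
Mean level over the 2 biological replicates, as log10(mean CPM + 1), of the receptors of the factors, the scavengers Ackr3 and Ackr4 and the lymphotoxin genes in the 10 tested classes. Il7r is dark in the lymphoid, dendritic and macrophage columns, Ccr7 in the dendritic and B columns, and Ltbr is pale in the B and lymphoid columns, at 2.38 and 6.33 CPM.

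Ligand and receptor of the lymphotoxin pathway lay in different cells. Ltb was at 363 and 351 CPM in the lymphoid class and 257 and 195 in B cells (highest adjusted p = 1.6e-43, edgeR), and at no more than 15.1 CPM on average in any other class. Its receptor Ltbr was at 61.0 and 94.7 CPM in blood endothelial cells (higher than the rest, adjusted p = 7.8e-09) and 45.6 and 48.9 in fibroblast-like cells (adjusted p = 5.5e-04). It did not differ detectably between the 4 fibroblast clusters (lowest adjusted p = 0.27). Cxcl12, a homing chemokine outside the 6, was called higher in cluster 1 (log2 fold change against the others 1.11, SE 0.09, adjusted p = 2.0e-29, edgeR) and in cluster 4 (0.69, SE 0.12, adjusted p = 2.9e-07). It stood at 1306 and 1095 CPM in cluster 1 and 1119 and 894 CPM in cluster 4, against 481 and 429 CPM in cluster 2 and 313 and 267 CPM in cluster 3. Cluster 1 did not pass the test against cluster 4 (log2 fold change 0.32, SE 0.13, adjusted p = 0.059).

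Of the 41 receptor and partner genes, 37 were in the tables and 25 were tested across classes. In the T, NK or innate lymphoid class 13 of the 25 were called higher and 5 lower, beside 23.6% and 15.8% of all genes. In dendritic cells 12 were higher and 1 lower (19.6% and 9.56% of all genes). In B cells the numbers were 11 and 8 (21.1% and 16.1%), and in macrophages 11 and 2 (28.5% and 14.8%). In lymphatic endothelial cells 4 were higher (19.2%), namely Ackr3, Flt3l, Icam1 and S1pr1, and 5 lower (13.5%). In fibroblast-like cells 7 were higher (30.9%), among them Cxcl12, Vcam1 and Ltbr, and 5 lower (13.9%). The median log2 fold change of the 25 was 1.72 in dendritic cells and -0.79 in fibroblast-like cells, beside -0.03 and 0.13 over all genes tested. A partner gene, too, can pass the filter on low counts through its highest class or cluster alone. The counts, medians and receptor calls are therefore partly set in advance. Among fibroblast clusters 14 of the partner genes were tested. In cluster 1 the number called higher was 3 (10.0% of all genes). In cluster 2 it was 6, with 2 lower (16.4% of all genes higher and 6.19% lower). In the adventitial-type cluster 3 it was 6, Ackr4 and Tnfrsf11b among them, with 3 lower (19.3% and 13.5%). In cluster 4 it was 1, with 6 lower (8.78% of all genes higher and 829 of 7566 lower).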

How the data were processed

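The authors deposited 1 table for each of 5 collections, with the count of UMIs of every gene in every barcode, not normalized. STAR 2.6 and mm10 are named in the submitters' processing notes. The counting program, its annotation and strand setting and the choice of barcodes are not given in the sources used here. Barcodes with at least 300 genes and at most 10% mitochondrial UMIs were kept, and 20 called as doublets were removed. Cells were clustered with scanpy 1.11.5 (2000 variable genes, 30 principal components, 15 neighbours, Leiden resolution 1.0, and 0.5 within fibroblast-like cells and other classes), without the 6 factors and 41 partner genes. Clusters were named from listed markers, with at least 3 raised.

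Counts were summed per class and biological replicate and tested across all genes passing edgeR's filter on low counts, with edgeR 4.0.16 in R 4.3.3 (TMM, quasi-likelihood F-test, replicate as a block because the classes of 1 replicate come from the same collections), each class against the mean of the others and for all pairs, with Benjamini-Hochberg adjustment at 0.05. DESeq2 1.42.0 was an alternative. Collections held between 1636550 and 3345732 UMIs. A count of 0 was given an upper limit of 3 counts over the group, which covers counting error only. On simulated counts with changes only in the fibroblast-like class, which had the most UMIs, 98.8% of 4-fold and 64.5% of 2-fold changes were recovered. With changes only in fibroblast cluster 1, 88.7% and 32.3% were recovered. The simulation gave all genes the same assumed spread and counted only changed genes that passed the filter. Recovery in smaller classes and clusters was not measured. The genes and lists were chosen with earlier results of these data known. Genes named are the 6 factors, their partner list, the 3 genes most like each factor, the leading genes and markers of clusters, and near-identical copies. The other genes of single barcodes and the alternatives without the 1 or 2 barcodes with the most Cxcl13 UMIs were chosen after the values were seen.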

Additional observations from a re-analysis of the deposited data

Results flagged for a closer look

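The Cxcl13 level of fibroblast cluster 1 had 1 collection far from the other 4. Collection 1A stood at 167 CPM, and the other 4 ran from 61.0 to 87.8 CPM. The gap to the nearest collection was 0.747 of the whole range, above Dixon's 95% critical value for 5 values. Of 8 such sets of 5 collections, this was the only one past the limit, and chance passes about 1 in 20 sets. Without collection 1A the higher call of cluster 1 was lost (log2 fold change 0.41, adjusted p = 0.30, edgeR). Whether a few cells or the whole collection set this value was not tested.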

How the results depend on the processing

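Counts are of pairs of a gene and a group. For the factors across classes (7 higher, 0 lower), sums per collection gave 3 higher and 1 lower, split UMIs gave 4 higher, and DESeq2 gave 3 lower. Fewer factors passed the filter on low counts under some settings. Across classes Tnfsf11 and Cxcl13 did not with sums per collection, nor Cxcl13 with split UMIs or at most 5% mitochondrial UMIs, and among fibroblast clusters Il7 did not with sums per collection, split UMIs or without collection 1A or 2A. DESeq2 gave Il7 in cluster 1 no adjusted p. For the partners across classes, split UMIs gave 26 lower, against 42. For the factors among fibroblast clusters (4 higher, 2 lower), DESeq2 gave 1 and 1, at most 5% mitochondrial UMIs 2 and 0, sums per collection 2 higher and split UMIs 1 higher. The lower count was 1 with at least 500 genes per barcode, with no doublet removed, with the 5% highest doublet scores removed, and without 1 or 2 Cxcl13 barcodes. Leaving out 1 collection gave 2 to 4 higher and 0 to 2 lower. For the partners among fibroblast clusters (16 higher, 11 lower), split UMIs gave 10 higher, and DESeq2 and at most 5% mitochondrial UMIs gave 7 lower each. Without the replicate block, the factors gave 7 higher across classes, and 3 higher and 1 lower among fibroblast clusters.

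Among values called under the setting used here or under the alternative, the direction turned for Cxcl13 alone. In cluster 2 its log2 fold change was -0.50 with at least 500 genes, -0.47 with no doublet removed, -0.23 with the 5% highest doublet scores removed, -0.36 without 1 or 2 barcodes, and between -0.53 and 1.37 with 1 collection left out. Cluster 1 over 2 was 0.91, 0.73, 1.04 and 1.00 under the first 4 of these settings and between -0.72 and 1.09 with 1 collection left out. With no doublet removed, cluster 3 stood at 0.96 and cluster 1 over 3 at -0.34. The dendritic value was -0.78 with at least 200 genes and -0.68 with at least 500. Apart from the barcodes left out, the cause was not tested. Of the values of single genes under these settings, 461 counted as the same, 45 lost the call, 13 gained it and the 16 above turned. The tested ones among the 461 kept their side of the threshold. A change of direction between 2 clusters or classes that was called under neither setting counted as the same. The 461 also hold differences with 1 replicate left out, which have no threshold and could only count as the same or turned. With 1 replicate left out only differences, and no test, could be had. Genes with few UMIs, Ccl19 first, are limited by depth.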
